A study of Mus musculus with 2 samples.

Results

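Dividing T cells were examined in single-cell RNA sequencing of mouse colon inflamed by dextran sulfate sodium (DSS), a sugar polymer that injures the lining. A barcode was taken as a dividing T cell when it held at least 2 unique molecular identifiers (UMIs, each 1 counted RNA molecule) of the CD3 genes Cd3d, Cd3e and Cd3g together, at least 3 UMIs of Mki67 and Top2a together, none of Csf1r or Ms4a1 and at most 3 of Epcam. The limits on Csf1r, Ms4a1 and Epcam are meant to hold off macrophages, B cells and epithelium. They were applied to barcodes with at least 200 genes detected and under 20% of UMIs from mitochondrial genes. Members were thus chosen by their measured CD3, Mki67, Top2a, Csf1r, Ms4a1 and Epcam counts. The rule found 621 members, 214 in library 1 and 407 in library 2, among 3660 T cells by the same gate, 14848 barcodes that passed the filters and 16208 barcodes in all. Non-dividing T cells passed the same gate with no UMI of Mki67 or Top2a (945 and 1242 cells), and the 852 T cells with 1 or 2 such UMIs were placed in neither class.

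All samples belong to 1 group: mice 7 weeks of age, kept free of specific pathogens, given 3% DSS for 6 days, with tissue taken from mid-colon. The group holds 2 libraries, labelled as repeats. There is no untreated colon among the samples analysed, and what DSS itself changes is not addressed. Whether the repeats are different animals is not stated. With the library as a block, p-values measure only how differences between cell classes vary between these libraries, which may be technical. The fit of dividing against non-dividing cells had 4 sums and left 1 residual degree of freedom. Its spread was thus mostly borrowed across genes (8.75 prior degrees of freedom).

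A T cell that meets its antigen grows in size, switches to glycolysis, copies its DNA in S phase and then splits in mitosis. Mki67 encodes the Ki-67 protein that coats chromosomes in mitosis, and Top2a encodes the topoisomerase that untangles copied DNA, so both mark cells late in the cycle. The colon holds several T cell lineages: CD4 helper cells, Foxp3 regulatory cells that restrain inflammation, CD8 alpha beta killer cells, and intraepithelial cells with a gamma delta receptor or with CD8 alpha pairs in place of the CD8 alpha and beta pair of conventional killer cells.

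The members' identity was checked against the markers. Mki67 (ENSMUSG00000031004, chromosome 7, 135689784 to 135716361 in GRCm38) stood at 1239 and 1226 CPM (counts per 1000000 UMIs of the summed cells) in the summed members of libraries 1 and 2, and Top2a (ENSMUSG00000020914, chromosome 11, 98992943 to 99024189) at 1252 and 1246 CPM. At least 1 UMI of Cd3e was found in 98.6% and 98.3% of members. The median member held 24 UMIs of Mki67 and Top2a in library 1 and 18 in library 2. Near the threshold, 27 and 40 members held exactly 3 such UMIs, and 69 and 133 T cells just outside it held 2. These values chose the cells and carry no test. Members had more UMIs than non-dividing T cells, with medians of 10169.5 and 8748 UMIs against 4956 and 4300. A deeper barcode reaches 3 UMIs of Mki67 and Top2a more easily, so the rule itself favours deep members and shallow non-dividing cells. How much of the difference comes from this was not tested. Of 18 barcodes that occur in both libraries, 0 were members.

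Genes of the cell cycle are switched in waves. Promoters of mitotic genes often carry a CHR element (TTTGAA) and CCAAT boxes, and promoters of replication genes often carry E2F sites, here searched as TTTCCCGC or TTTGGCGC, all on both strands. The 250 bases before the RefSeq start sites (GRCm38.p6) were searched for 16 of the 20 genes of a G2/M list and 16 of the 20 genes of a G1/S list. The 4 promoters below belong to the list genes with the highest CPM in the members that hold the searched letters. Genes on a chromosome that was left out of this choice are not among them. The 4 are shown because these genes separate dividing from non-dividing T cells. In the first 3, capitals mark TTTGAA and CCAAT on either strand, which overlap once in Ube2c, and in the last they mark only E2F letters, with its CCAAT letters left in lower case.
Ube2c (chr2:164769679-164769928, plus strand): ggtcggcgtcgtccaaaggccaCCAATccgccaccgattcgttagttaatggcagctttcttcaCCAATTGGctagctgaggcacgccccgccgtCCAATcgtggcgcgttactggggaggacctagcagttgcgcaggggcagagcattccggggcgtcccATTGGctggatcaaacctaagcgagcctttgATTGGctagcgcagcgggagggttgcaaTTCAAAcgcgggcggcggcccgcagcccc
Kif11 (chr19:37376132-37376381, plus strand): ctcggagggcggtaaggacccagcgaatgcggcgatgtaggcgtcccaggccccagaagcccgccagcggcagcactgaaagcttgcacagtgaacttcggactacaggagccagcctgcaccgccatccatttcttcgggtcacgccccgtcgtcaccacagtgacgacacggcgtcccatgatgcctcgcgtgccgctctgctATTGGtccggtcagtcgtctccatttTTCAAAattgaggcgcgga
Ccnb2 (chr9:70421555-70421804, minus strand): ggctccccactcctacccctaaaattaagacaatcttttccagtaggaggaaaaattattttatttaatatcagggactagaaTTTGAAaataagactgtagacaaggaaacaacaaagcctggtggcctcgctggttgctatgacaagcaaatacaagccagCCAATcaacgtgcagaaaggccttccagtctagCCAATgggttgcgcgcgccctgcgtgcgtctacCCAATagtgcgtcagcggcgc
Mcm6 (chr1:128359706-128359955, minus strand): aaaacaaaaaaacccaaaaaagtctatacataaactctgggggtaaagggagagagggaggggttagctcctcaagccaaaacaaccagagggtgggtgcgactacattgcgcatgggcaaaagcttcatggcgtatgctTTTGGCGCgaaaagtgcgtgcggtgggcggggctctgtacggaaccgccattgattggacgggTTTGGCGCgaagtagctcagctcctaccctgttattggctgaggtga

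Ube2c, which tags mitotic cyclins for destruction, stood at 473 and 414 CPM in dividing and 20.7 and 33.9 CPM in non-dividing T cells. Kif11, a spindle motor, stood at 265 and 260.2 against 4.78 and 6.16 CPM, and the mitotic cyclin Ccnb2 at 191 and 231 against 9.77 and 9.85 CPM. Mcm6, part of the helicase that opens DNA for replication, stood at 167 and 199 against 54.2 and 68.2 CPM and so differed less than the mitotic genes. Of the G2/M promoters, 31.2% (5 of 16) held TTTGAA against 15.99% of all 32851 promoters in the table, and 87.5% held CCAAT against 33.9%. CCAAT was about as common in the G1/S promoters (83.3%, 15 of 18), so it did not set the lists apart. Of 18 G1/S promoters, 33.3% held an E2F sequence against 1.30% of all promoters, and 0 of the 16 G2/M promoters did. A match describes the letters only. It does not show that a factor binds there.

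Cell cycle genes were present as whole programs. All 20 G2/M genes and all 20 G1/S genes were higher in dividing than in non-dividing T cells in both libraries, with median log2 differences of 5.17 and 2.83 against -0.03 over all 12345 genes. Mki67 and Top2a chose the cells, so these values are a description. The checkpoint kinase Bub1 stood at 75.2 and 80.9 CPM in dividing against 0.399 and 0.879 CPM in non-dividing cells (libraries 1 and 2 in each pair), and the spindle gene Nusap1 at 427 and 407 against 1.99 and 6.51 CPM. The replication licensing factor Cdc6 stood at 41.8 and 39.7 against 0.797 and 0.704 CPM. Rrm2, a subunit of the enzyme that makes DNA building blocks, stood at 158 and 166 against 2.79 and 4.57 CPM. Of 18 genes of nucleotide and one-carbon synthesis, 17 were higher. Outside the lists the largest differences were those of Aspm, a spindle pole gene (132 and 156 against 0.598 and 1.06 CPM), the histone genes H2ac4 and H3c3, the cohesion gene Esco2, Pclaf, Knl1, Kif15 and Sgo2a, with log2 differences of 5.98 to 7.47.

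Within the members, most cells carried more mitotic than replication transcripts. The summed G1/S genes exceeded the summed G2/M genes in 80 of 214 members of library 1 and 148 of 407 of library 2 (37.4% and 36.4%). Per lineage this share was 36.1% and 37.4% in Cd8b1+ members and 34.7% and 31.7% in Cd4+ members (lineages defined below). Median sums were 18.2 and 20.5 UMIs of G1/S genes per 10000 UMIs, and 35.6 and 40.5 of G2/M genes. The plot of the 2 sums shows an arc, from members with many G1/S and few G2/M transcripts to members with the reverse. Ki-67 and topoisomerase transcripts peak late in the cycle, so the rule favours the later phases.

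**Figure D1:**
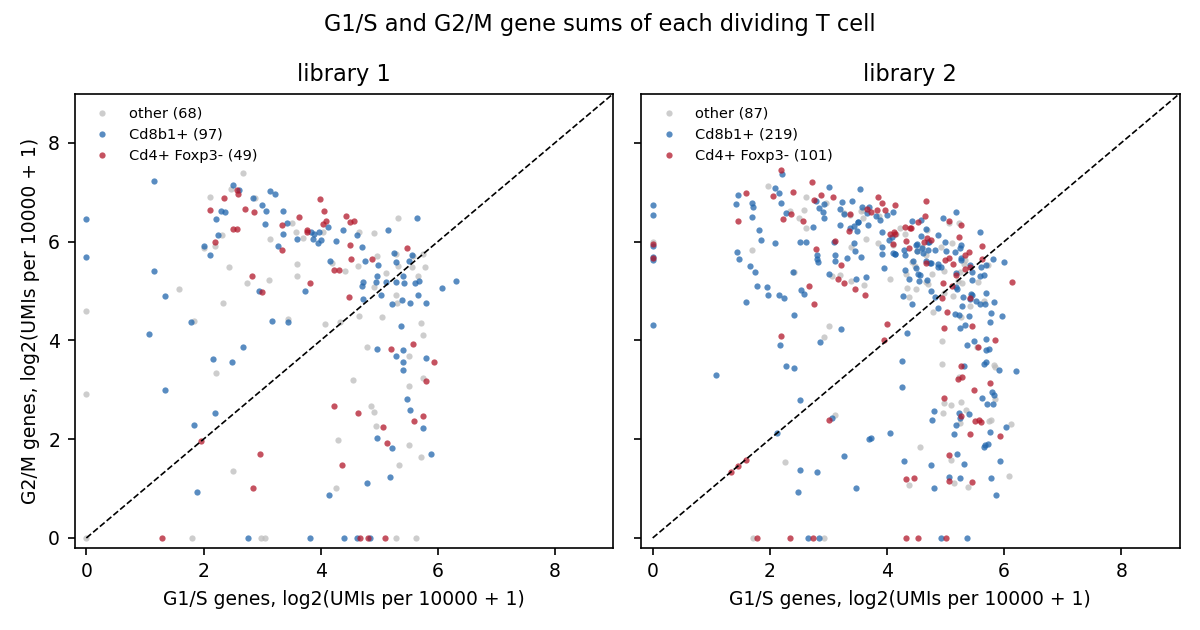
Summed G1/S (horizontal) and G2/M (vertical) genes of each dividing T cell as log2(UMIs per 10000 + 1), 1 panel per library and 1 point per cell, coloured by lineage with cell numbers in the key; the dashed line marks equal sums. Cd8b1+ and Cd4+ members spread over the same arc, and 131 of 214 and 252 of 407 members lie above the line.

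The lineage of each T cell was read from 1 or more UMIs of its defining genes: Foxp3, Cd4 without Foxp3 (Cd4+), Cd8b1 (Cd8b1+), Trdc without Cd4, Foxp3 or Cd8b1 (Trdc+), or Cd8a alone. Cells with a Cd8 gene together with Cd4 or Foxp3 were called mixed, and cells with none of these genes stayed unassigned. A cell without a counted Foxp3 UMI may still express Foxp3, so the Cd4+ class can hold regulatory cells. Cd8b1+ cells were the most numerous dividing lineage, with 97 of 214 members in library 1 and 219 of 407 in library 2, or 45.3% (38.5 to 52.3) and 53.8% (48.8 to 58.7), where brackets give exact (Clopper-Pearson) 95% intervals for counting error only. Cd4+ members numbered 49 and 101, or 22.9% (17.4 to 29.1) and 24.8% (20.7 to 29.3). There were 16 and 22 Trdc+ members, 15 and 20 with Cd8a alone, 8 and 5 Foxp3+, 12 and 17 mixed and 17 and 23 with none of the genes. Lineage calls depend on depth, and members are deeper, so lineages were compared between states after each cell was thinned to 3000 UMIs. This left out 3 and 8 dividing and 142 and 262 non-dividing cells. The state itself was kept from raw counts, so it still depends on depth.

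With lineage called at equal depth, Cd8b1+ cells took a larger share of the dividing than of the non-dividing T cells in both libraries. They made up 38.4% (31.8 to 45.3) of dividing and 24.7% (21.7 to 27.8) of non-dividing cells in library 1, and 50.4% (45.4 to 55.4) and 30.8% (27.9 to 33.8) in library 2. The intervals do not overlap in either library. This difference was not tested. Cd4+ cells differed between the libraries: they were 17.1% (12.2 to 22.8) of dividing and 14.3% (12.0 to 16.9) of non-dividing cells in library 1, with overlapping intervals, and 17.3% (13.7 to 21.4) and 28.1% (25.3 to 31.0) in library 2, without overlap. In library 2 the Cd4+ intervals did overlap at 5000 UMIs (16.2 to 24.7 against 21.4 to 29.6) and without thinning (20.7 to 29.3 against 28.2 to 33.4). There were thus 2.25 Cd8b1+ cells for each Cd4+ cell among the dividing and 1.72 among the non-dividing cells of library 1, and 2.91 and 1.10 in library 2. When 2 UMIs of the defining gene were required, these ratios were 2.81 and 2.58 in library 1 and 5.23 and 1.55 in library 2. The shares of Trdc+, Foxp3+ and Cd8a-only cells had overlapping intervals in the dividing and non-dividing cells of both libraries. The Cd8a-only share, for example, was 11.4% (7.43 to 16.5) against 18.2% (15.6 to 21.0) in library 1.

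**Figure D2:**
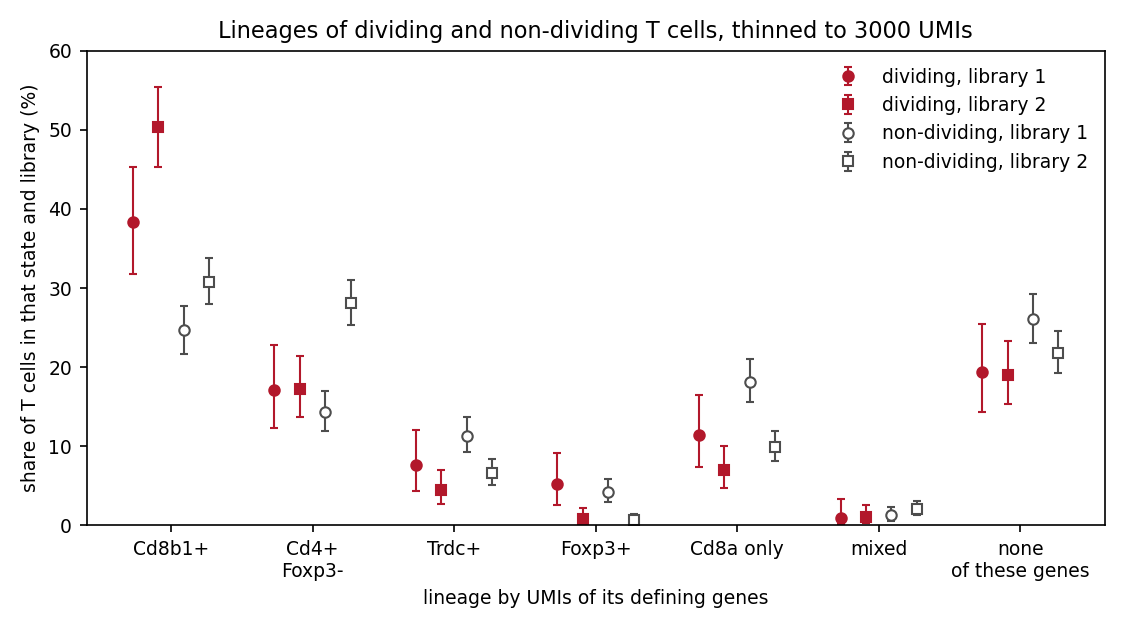
Share of each lineage (horizontal) among dividing (filled) and non-dividing (open) T cells in percent of the cells of that state and library (vertical), with every cell thinned to 3000 UMIs; circles are library 1, squares library 2, and bars exact 95% counting intervals. Lineage is read from the thinned counts and division state from raw counts. The Cd8b1+ share is 38.4% and 50.4% of dividing and 24.7% and 30.8% of non-dividing cells.

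Free RNA can give a cell UMIs of a gene it does not express. At the same depth of 3000 UMIs, Cd8b1 was found in 0.496% and 0.534% of epithelial barcodes (at least 10 UMIs of Epcam and none of CD3), Cd4 in 0.142% and 0.214%, Trdc in 0.567% and 0.107% and Foxp3 in 0.0709% and 0.107%, against 38.9% and 51.4%, 19.9% and 18.8%, 9.48% and 4.76% and 5.21% and 0.752% of members. The Foxp3 share of members in library 2 rests on 3 cells, and its interval (0.155 to 2.18) overlaps that of the epithelial barcodes (0.0027 to 0.594), so it is not read as expression. Without thinning, at median depths of 17226 and 21573 UMIs in epithelial barcodes and 10169.5 and 8748 in members, the Cd8b1 shares were 2.10% and 4.40% against 49.5% and 56.8%.

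Read the other way, and without thinning, the share of Cd8b1+ cells that met the rule for division was 22.2% (18.4 to 26.4, 97 of 436) and 27.6% (24.5 to 30.8, 219 of 794). It was 17.2% (13.0 to 22.1, 49 of 285) and 14.9% (12.3 to 17.9, 101 of 676) in Cd4+ cells, 9.30% (5.41 to 14.7, 16 of 172) and 17.7% (11.5 to 25.6, 22 of 124) in Trdc+ cells and 11.1% (4.92 to 20.7, 8 of 72) and 16.1% (5.45 to 33.7, 5 of 31) in Foxp3+ cells. In Cd8a-only cells it was 6.70% (3.80 to 10.8, 15 of 224) and 11.3% (7.04 to 16.9, 20 of 177). Over all T cells it was 14.7% (12.9 to 16.6, 214 of 1460) and 18.5% (16.9 to 20.2, 407 of 2200). The intervals of Cd8b1+ and Cd4+ cells overlap in library 1 and not in library 2. At 3000 UMIs, the share of cells with at least 1 UMI of Mki67 or Top2a was 32.4% and 44.3% in Cd8b1+ and 29.1% and 32.8% in Cd4+ cells. It was 27.5% and 28.7% in Trdc+ and 22.8% and 32.2% in Cd8a-only cells. In Foxp3+ cells it was 27.3% in library 1 and 8 of 16 cells in library 2 (24.7 to 75.3%), so the order of the lineages differed with depth and library. Epithelium, which itself divides, held Mki67 in 8.22% and 19.0% of barcodes at that depth, so a single UMI is not read as division.

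The other lineages were too few for a test and are given by their levels. Trdc+ members carried the gamma chain gene Trgc1 at 469 and 404 CPM, against 10.98 and 3.77 CPM in Cd8b1+ members. Trac, the alpha chain of the alpha beta receptor, also had a UMI in 81.2% and 68.2% of Trdc+ members, and both Trbc1 and Trbc2, its beta chains, had one in 11 of 16 and 16 of 22. Ikzf2, a transcription factor of unconventional and regulatory T cells, stood at 797 and 778 CPM in Trdc+, 1168 and 1192 CPM in Cd8a-only and 159 and 71.1 CPM in Cd8b1+ members. Fcer1g, a signalling adaptor of innate-like cells, stood at 453 and 857, 829.8 and 723 and 64.1 and 85.2 CPM in the same order. Both small classes thus lay above Cd8b1+ members in each library for these genes. Gzma, a granzyme gene, stood at 7211 and 6526 CPM in Trdc+ and 10412 and 8237 CPM in Cd8a-only members, against 6497 and 3227 CPM in Cd8b1+ members. Ifng stood at 5.21 and 16.6 CPM in Trdc+ and 21.1 and 9.97 CPM in Cd8a-only members, below its level in Cd8b1+ members (249.9 and 151 CPM). Il17a, a cytokine of type 17 gamma delta cells, stood at 0 and 33.3 CPM in Trdc+ members (0 and 8 UMIs) and at 294 and 139 CPM in non-dividing Trdc+ cells. In library 1, 1 barcode held 180 of all 261 Il17a UMIs of non-dividing T cells.

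The Foxp3+ members (8 and 5 cells) carried the checkpoint gene Ctla4 at 3312 and 689 CPM, against 581 and 439.7 CPM in Cd4+ members. The IL-2 receptor gene Il2ra stood at 1019 and 229.5 against 40.5 and 119 CPM. Their Il10 stood at 2839 and 0 CPM, and 1 barcode held 188 of the 234 UMIs in library 1. The amphiregulin gene Areg stood at 121 and 889 CPM, with 28 of 31 UMIs of library 2 in 1 barcode. These levels rest on single cells. Il22, a cytokine that acts on epithelium, also came mostly from 1 member, which held 73 of the 77 UMIs in library 1.

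Dividing T cells differed from non-dividing T cells well beyond the cell cycle. Of 12345 genes tested with edgeR's quasi-likelihood test on summed counts, 2076 were higher (16.8%) and 1375 lower (11.1%) at an adjusted p under 0.05, so a list with a share of calls near these is no result about that list. Of the lists, glycolysis had 10 of 16 genes higher and homing and residency had 7 of 20 lower (8 and 2 with DESeq2). In the sentences below, pairs of values are CPM in libraries 1 and 2, and differences are log2 fold changes ± SE of dividing minus non-dividing cells. Fewer cells with a transcript and less of it per cell cannot be told apart in such sums.

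Of 16 glycolysis genes, 10 rose and 0 fell (0 also at an unadjusted p under 0.05 and with DESeq2), with a median difference of 0.54. The triose isomerase gene Tpi1 stood at 286 and 196 CPM in dividing and 117 and 114 CPM in non-dividing cells (1.12 ± 0.13, edgeR adjusted p = 0.00011). Gapdh stood at 1522 and 1487 against 802 and 939 CPM (0.89 ± 0.08), and the rise was also found within Cd8b1+ cells (0.65 ± 0.11) and within Cd4+ cells (0.73 ± 0.11). Eno1, Pgam1, Pgk1, Pkm, Ldha, Pfkl, Aldoa and Pfkp rose too, and in all but Aldoa, Pgam1 and Pfkp the rise passed the test within Cd8b1+ cells. Within Cd8b1+ cells 7 glycolysis genes rose and within Cd4+ cells 8, against 11.9% and 10.3% of all 9453 genes tested in each lineage. Of all genes, 5.84% fell within Cd8b1+ and 5.28% within Cd4+ cells.

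Of 20 tested regulators of entry into the cycle, 11 were higher and 3 lower, against 16.8% and 11.1% of all genes. The count of lower genes is near that share and is no result about the list. Mki67 and Top2a chose the cells, so rises of cell cycle regulators are a description. E2f7, a repressor that switches off the replication wave, stood at 34.7 and 30.1 CPM in dividing cells and 0.199 and 1.23 CPM in the others. Its partner E2f8 stood at 65.6 and 61.8 against 1.20 and 2.29 CPM. E2f1, an activator of that wave, and Cdkn2c, an inhibitor of the G1 kinases, rose by 4.16 ± 0.38 and 2.78 ± 0.17. The antiproliferative genes Btg1 and Btg2 fell, Btg1 from 1828 and 1764 to 979 and 874 CPM (-0.86 ± 0.06, edgeR adjusted p = 4.48e-06) and Btg2 from 498 and 511 to 288 and 312 CPM. The G1 cyclin Ccnd2 fell as well, from 355 and 357 to 229 and 172 CPM. These 3 falls passed the test within Cd8b1+ and within Cd4+ cells. Myc did not pass (log2 difference -0.53 ± 0.22, edgeR adjusted p = 0.101).

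Tcf7, Il7r and Bcl2 were lower in dividing cells. Tcf7 (ENSMUSG00000000782, chromosome 11, 52252371 to 52283014), the factor that keeps T cells able to self-renew, stood at 46.8 and 59.5 CPM against 205 and 159.9 CPM (-1.65 ± 0.15, edgeR adjusted p = 2.58e-05). Il7r (ENSMUSG00000003882, chromosome 15, 9505788 to 9530176), the receptor for the survival cytokine IL-7, stood at 73.1 and 114 against 242 and 330.1 CPM (-1.52 ± 0.10). The survival gene Bcl2 stood at 91.5 and 93.8 against 289.8 and 204 CPM (-1.29 ± 0.13). In each of these 3 genes both dividing sums lay below both non-dividing sums. All 3 fell within each main lineage: Tcf7 by 1.86 in Cd8b1+ and 1.59 in Cd4+ cells, Il7r by 1.26 and 1.93, and Bcl2 by 1.24 and 0.83 on the log2 scale.

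Of 22 lineage transcription factors, 9 were lower (Tcf7, Zbtb16, Id3, Ikzf2, Ahr, Hopx, Foxp3, Zbtb7b and Tox) and 1 higher, Prdm1, which encodes the effector factor Blimp-1 (88.2 and 74.2 against 56.2 and 65.2 CPM, 0.50 ± 0.13, edgeR adjusted p = 0.019). With DESeq2, 5 were lower and 0 higher, so the call of Prdm1 ended. Tbx21 (T-bet) and Gata3, the factors of type 1 and type 2 cells, did not pass, at 0.08 ± 0.13 and 0.28 ± 0.12. The fall of Ikzf2 (-0.90 ± 0.08) did not pass within Cd8b1+ cells (-0.17 ± 0.21, edgeR adjusted p = 0.669) or within Cd4+ cells (-0.67 ± 0.24, edgeR adjusted p = 0.0667). Ikzf2 was high in Cd8a-only cells, which made up 18.3% and 8.94% of the non-dividing and 7.01% and 4.91% of the dividing cells without thinning. Their part in the fall was not tested.

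Among homing and residency genes 7 of 20 fell and 0 rose (2 at an unadjusted p under 0.05, 0 with DESeq2). Ccr7, a chemokine receptor that brings T cells into lymph nodes, stood at 4.60 and 9.02 CPM in dividing and 16.7 and 15.3 CPM in non-dividing cells (-1.07 ± 0.28). The integrins of resident T cells, Itga1 and Itgae, fell by 0.69 ± 0.15 and 0.53 ± 0.10, and Ccr2, Ccr6 and Klf3 fell too. With DESeq2, 2 of the 20 fell. The egress receptor S1pr1 (0.03 ± 0.11) and the gut homing receptor Ccr9 (-0.09 ± 0.11) did not pass.

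Cytokines and chemokines were more often lower than higher, with 5 of 15 tested genes lower (Il17a, Il2, Ccl5, Xcl1 and Ltb) and 1 higher, Tgfb1. With DESeq2, 3 were lower and 0 higher, so the call of Tgfb1 ended. Ccl5, a chemokine stored by memory and effector T cells, stood at 5762 and 4238 CPM in dividing and 10002 and 7959 CPM in non-dividing cells (-0.76 ± 0.05, edgeR adjusted p = 1.32e-06), and fell within Cd8b1+ cells (-1.24 ± 0.09) and Cd4+ cells (-1.10 ± 0.09). Ifng, the type 1 effector cytokine, stood at 338 and 324 against 321 and 399.6 CPM and did not pass in all T cells (-0.03 ± 0.10, edgeR adjusted p = 0.883). Within Cd8b1+ cells alone Ifng fell, from 345 and 588 to 249.9 and 151 CPM (-1.27 ± 0.39, edgeR adjusted p = 0.0335), while in Cd4+ cells the libraries went opposite ways, from 1178 and 454 to 429 and 891 CPM. The difference between the lineages in this change did not pass its own test (-1.08 ± 0.56, adjusted p = 1). Single barcodes weighed on Ifng: 329 of the 831 UMIs of Cd4+ members in library 2 and 466 of the 1010 of non-dividing Cd4+ cells in library 1 came from 1 barcode each. Il17a fell by 4.03, but with dividing cells taken from 2 UMIs of Mki67 and Top2a the difference was -0.42 and did not pass.

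Cytotoxic genes differed between dividing and non-dividing cells in all T cells together, but no rise was found within a lineage. In all T cells 5 of 16 rose (Gzmm, Gzmk, Gzma, Gzmb and Serpinb9) and 4 fell (Klrd1, Klrk1, Klrc2 and Ctsw). With DESeq2 these counts were 3 and 2, and the calls of Serpinb9, Klrc2 and Ctsw were among those that ended. Gzma (ENSMUSG00000023132, chromosome 13, 113093825 to 113100981), the killing protease granzyme A, stood at 4859 and 2920.3 CPM in dividing and 3853 and 1691 CPM in non-dividing T cells (0.66 ± 0.09, edgeR adjusted p = 0.00033). Its level in library 2 members lay below that of non-dividing cells in library 1, so the groups overlap across libraries, and the call ended without the library block. Within Cd8b1+ cells Gzma stood at 6497 and 3227 in dividing and 5148 and 2873 CPM in non-dividing cells (0.25 ± 0.34, edgeR adjusted p = 0.693), and within Cd4+ cells at 877 and 255 against 1043 and 148 CPM (0.13 ± 0.37, edgeR adjusted p = 0.87). Gzmb differed by 0.20 ± 0.19 and -0.02 ± 0.20 and Gzmk by 0.18 ± 0.14 and 0.04 ± 0.19 within these lineages, without passing. Within either lineage 0 of 16 cytotoxic genes rose (0 also at an unadjusted p under 0.05 and with DESeq2), while Prf1 fell in both and Klrd1 and Klrk1 in Cd8b1+ cells. With DESeq2, 1 of the 16 fell within Cd8b1+ and 0 within Cd4+ cells. The 1 fall of 16 within Cd4+ cells is near the 5.28% of all genes lower there and is no result about the list.

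Receptors of activation and cytokines changed as follows. Il2ra, the high-affinity IL-2 receptor chain, rose in all T cells (94.9 and 79.9 against 60.8 and 71.1 CPM, 0.49 ± 0.13), a call that ended with DESeq2. It did not pass within Cd8b1+ (0.04 ± 0.35) or Cd4+ cells (0.15 ± 0.37). Of 16 tested cytokine receptors 6 fell (Il7r, Il1r1, Il6ra, Il4ra, Il18r1 and Il2rg). Of 18 costimulation and checkpoint genes 6 fell (Cd40lg, Nt5e, Cd96, Slamf6, Entpd1 and Cd27) and 1 rose, Havcr2, a call that ended with DESeq2, without the library block, at equal lineage weight and within each lineage. Pdcd1, Ctla4, Icos and Lag3 did not pass, and Lag3 fell within Cd8b1+ cells, a call that ended with DESeq2. In all T cells, 1 of the cytokine receptors and 0 of the costimulation genes fell with DESeq2. Markers of gamma delta and innate lymphoid cells gave 7 of 15 lower (Klrb1c, Il7r, Tyrobp, Klre1, Kit, Fcer1g and Trdc) and 0 higher (0 also at an unadjusted p under 0.05 and with DESeq2).

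**Figure D3:**
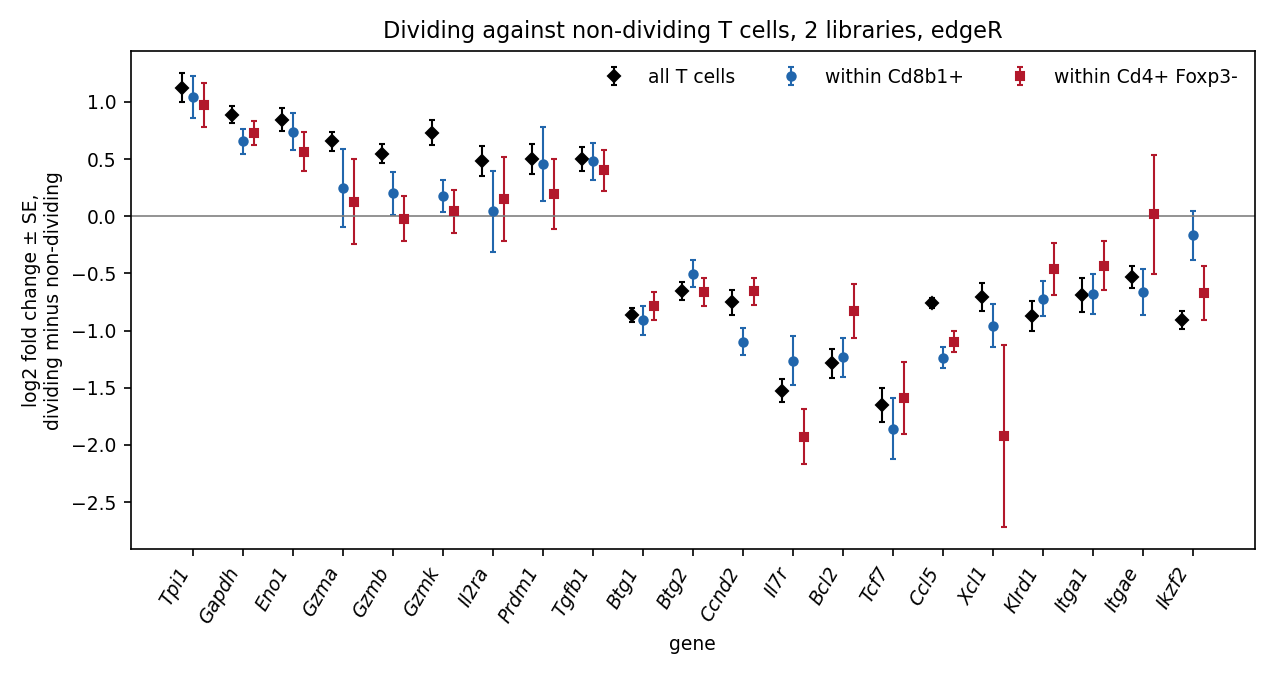
Log2 fold change of dividing minus non-dividing cells (vertical, ± SE from edgeR, 2 libraries) of 21 genes (horizontal) in all T cells (black diamonds), within Cd8b1+ cells (blue circles) and within Cd4+ Foxp3- cells (red squares). Tpi1 and Gapdh lie above and Btg1, Il7r, Tcf7 and Ccl5 below 0 in all 3, whereas Gzma lies at 0.66 in all T cells and at 0.25 and 0.13 within the lineages.

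Markers of other cells differed between dividing and non-dividing T cells. The summed neutrophil list stood at 1911 and 1995 CPM in dividing and 9339 and 5367 CPM in non-dividing cells, the epithelial list at 667 and 669 against 1116 and 1128 CPM and the plasma cell list at 320.1 and 645 against 1113 and 4122 CPM. The rule's limit of 3 Epcam UMIs is the same at any depth, so it is stricter per UMI in the deeper members. The part of this limit and of depth in these differences was not tested. Of the genes tested, 6 of 8 neutrophil, 8 of 9 epithelial, 4 of 5 plasma cell, 7 of 10 stromal and endothelial, 2 of 8 monocyte and macrophage and 1 of 3 B cell markers were lower in dividing cells. In the same order these counts were 4, 2, 2, 0, 1 and 0 with DESeq2, and 4, 3, 2, 2, 1 and 1 without the library block. The lists fixed for T cells do not hold these genes, but the named falls of Lcn2, Cxcl2, Il1b, Ifitm6, Wfdc21 and Wfdc17 (-1.28 to -1.83) are of genes that neutrophils and other myeloid cells express. Their part in these falls was not tested. In cells of at least 5000 UMIs alone, all 80 named genes of this comparison kept their calls. Ms4a1 and Csf1r were 0 by the rule. Epcam was at 0 in 45.8% and 49.6% of members and 50.1% and 55.5% of non-dividing cells, and the others held up to 3 UMIs. With Epcam at 0 required, 70 of 79 named genes kept their calls. The calls of Lat, Trbc1, Prdm1, Xcl1, Klrc2, Ctsw, Cd40lg, Il2ra and Il2rg ended.

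A few barcodes carried most of some of these markers. In library 1, 1 member held 1107 of the 1145 UMIs of the mast cell protease Mcpt2. Mcpt2 was the 1 mast cell marker called higher. The dendritic cell markers Clec9a and Xcr1 were called higher, but 7 of 8 and 9 of 9 UMIs of Clec9a and 14 of 15 and 8 of 11 of Xcr1 in libraries 1 and 2 came from 1 barcode per library, among the highest Scrublet doublet scores. For S100a8, 2 members held 886 and 694 of 2145 UMIs in library 1, and 2 held 1677 and 361 of 3407 in library 2. The barcodes of highest Scrublet score were taken as likely doublets, in a number fixed by the assumed rate. They were 348 (5.28%) and 739 (7.69%) of all barcodes. Among them were 11 (5.14%) and 12 (2.95%) members and 13 (1.38%) and 30 (2.42%) non-dividing cells. Without these likely doublets all 80 named genes kept their calls.

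The main dividing lineages were then compared with each other, which the rule did not use. Of the cytotoxic list 12 of 16 genes were higher in dividing Cd8b1+ cells (8 with DESeq2 and 6 without the library block). No gene of the G1/S and G2/M lists passed, whereas 3 cell cycle brakes and G1 regulators were lower, as given below. In the lineage fit, 89 of 9453 genes (0.942%) were higher in Cd8b1+ and 169 (1.79%) lower, where the 8 genes of the rule and the genes that define the lineages were left out. For the G1/S and G2/M lists these counts were 0 in either direction (0 and 1 at an unadjusted p under 0.05, 0 with DESeq2), with median differences of 0.135 and -0.25. For Ube2c, Cdk1 and Pcna the differences were -0.27 ± 0.14, -0.32 ± 0.26 and 0.14 ± 0.13. A p that misses the threshold does not show that the lineages cycle alike.

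Of 16 cytotoxic genes 12 were higher in dividing Cd8b1+ cells and 1 lower, Srgn (8 and 1 with DESeq2). Gzma stood at 6497 and 3227 CPM in Cd8b1+ and 877 and 255 CPM in Cd4+ members (3.24 ± 0.38, edgeR adjusted p = 0.0001), and 1 barcode held 225 of the 433 UMIs of the Cd4+ members of library 1. The pore-forming perforin gene Prf1 stood at 65.9 and 63.1 against 16.2 and 8.58 CPM (2.50 ± 0.32), and Klrk1, which encodes the stress receptor NKG2D, at 50.3 and 67.3 against 6.08 and 11.8 CPM (2.63 ± 0.31). In all 3 genes both Cd8b1+ sums lay above both Cd4+ sums. Gzmm, Klrc2, Klrd1, Klrc1, Gzmk, Ctsw, Gzmb, Cst7 and Nkg7 were higher by 0.54 to 2.41. The call of Gzmm ended with DESeq2 and without the library block, and that of Srgn without the block.

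Transcription factors of both lineages separated the groups. Eomes, a factor of killer and memory CD8 cells, had 49 and 74 UMIs in Cd8b1+ members (44.9 and 34.8 CPM) and 0 in Cd4+ members, which makes it at least 18.2-fold higher, with 3 UMIs over the whole group as the floor. Runx3, which commits T cells to the CD8 lineage, was higher (646 and 467 against 348 and 289.6 CPM, 0.78 ± 0.11). Zbtb7b, which commits them to the CD4 lineage, was lower (5.49 and 7.53 against 54.7 and 46.1 CPM, -2.86 ± 0.33), as was Maf, a factor of IL-10 and IL-21 producing helper cells (19.2 and 26.4 against 990.2 and 649 CPM, -5.15 ± 0.46). Batf and Id2 were lower by 1.29 and 0.70, calls that ended without the library block.

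Among cytokines, the chemokines Xcl1 and Ccl5 were higher in dividing Cd8b1+ cells. Xcl1, which attracts cross-presenting dendritic cells, had 123 and 142 UMIs against 2 and 1, a ratio of 39.2 (counting interval 13.3 to 191). Il21, a helper cytokine for B and CD8 cells, had 9 and 26 UMIs in Cd4+ members and 0 in Cd8b1+ members, at least 26.3-fold lower there. Il10 stood at 23.8 and 6.12 CPM in Cd8b1+ and 119 and 78.3 CPM in Cd4+ members (-2.91 ± 0.39), and Ltb was lower as well. Ifng was lower in dividing Cd8b1+ cells, at 249.9 and 151 against 429 and 891 CPM (-1.80 ± 0.40, edgeR adjusted p = 0.0203), and this call ended with DESeq2 and without the library block. At least 1 UMI of Ifng was found in 53.6% and 34.2% of Cd8b1+ and 71.4% and 52.5% of Cd4+ members.

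Surface receptors differed in the same cells. Cd40lg, the helper ligand that activates B cells and phagocytes, had 36 and 59 UMIs in Cd4+ members and 0 in Cd8b1+ members, at least 71.4-fold lower in the latter. The costimulatory receptors Tnfrsf4 (OX40), Icos and Tnfrsf18 were lower in Cd8b1+ members, with Tnfrsf4 at 3.66 and 6.59 against 259 and 229.5 CPM (-5.44 ± 0.26, edgeR adjusted p = 7.34e-09), and so were Ctla4 and Cd28. The call of Icos ended with DESeq2 and without the library block. The part of regulatory cells without a counted Foxp3 UMI in the levels of the Cd4+ members was not tested. Cd160, a receptor of cytotoxic and intraepithelial T cells, was higher at 270.1 and 255 against 30.4 and 66.5 CPM (2.30 ± 0.21), and Cd226 too. Of the cytokine receptors, Il1rl1 and the IL-18 receptor genes Il18r1 and Il18rap were lower (3 of 16 tested, 0 with DESeq2). The epithelium-binding integrin Itgae was higher at 179 and 49.4 against 16.2 and 9.65 CPM (2.94 ± 0.36), with the 2 libraries far apart in Cd8b1+ members, and this call ended without the library block, as did those of Gzma and Runx3.

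Of 18 tested cell cycle brakes and G1 regulators 3 were lower in dividing Cd8b1+ cells and 0 higher (7 lower at an unadjusted p under 0.05, 2 with DESeq2), against 1.79% of all genes lower. Cdkn1a, which encodes the inhibitor p21, stood at 61.3 and 45.7 CPM in dividing Cd8b1+ and 196 and 166 CPM in dividing Cd4+ cells (-1.79 ± 0.18, edgeR adjusted p = 2.43e-05). The G1 kinase Cdk6 (47.6 and 56.5 against 77.0 and 115 CPM) and the cyclin Ccnd2 (145 and 139 against 255 and 229.5 CPM) were also lower in Cd8b1+ cells, where the call of Cdk6 ended with DESeq2, without the library block and with 2 UMIs of the defining gene. In non-dividing cells Cdkn1a stood at 35.0 and 44.0 CPM in Cd8b1+ and 127 and 123 CPM in Cd4+ cells, so the order of the lineages was the same there. Of the glycolysis genes only Pkm differed by this test (-0.53 ± 0.12), a call that ended with DESeq2 and without the block, and 6 of 16 were lower in Cd8b1+ cells at an unadjusted p under 0.05.

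Outside the lists, the named genes that were higher in dividing Cd8b1+ cells were Jaml, an adhesion molecule of intraepithelial T cells (189 and 103 against 26.3 and 22.5 CPM, 2.49 ± 0.24), Cd7, Jun, Ugcg, Hsph1, Ptpn6, Plek and Chsy1, of which the last 4 lost their calls with DESeq2 and without the library block. Furin, a protease that T cell activation induces, was lower (83.3 and 83.3 against 603 and 374 CPM, -2.50 ± 0.18, edgeR adjusted p = 4.60e-07), as were Trib2, Slamf1, S100a4, Hif1a, Pou2f2, Ifitm2 and Ifitm3. The calls of S100a4, Ifitm2 and Ifitm3 ended in both of those settings. Of 9 tested markers of gamma delta and innate lymphoid cells 0 passed (3 higher at an unadjusted p under 0.05, 0 with DESeq2). Of the markers of other cells Ly6c2, Cd79b and Itgax were higher and Pecam1 lower, and their part in the comparison was not tested. The gamma chain transcript Trgc2 had 73 and 56 UMIs in Cd8b1+ and 0 and 1 in Cd4+ members, a ratio of 57.2 (counting interval 10.1 to 2276).

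Whether the change of each gene with division differed between Cd8b1+ and Cd4+ cells was tested as an interaction. It called 8 of 9453 genes higher (0.0846%) and 0 lower, with 412 genes at an unadjusted p under 0.05. DESeq2 called 2 higher and 0 lower. None of the 8 is a cell cycle, cytotoxic, cytokine or homing gene of the lists. The differences between dividing Cd8b1+ and Cd4+ cells given above were not shown to depend on division. The plot of levels sets the non-dividing cells beside them.

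**Figure D4:**
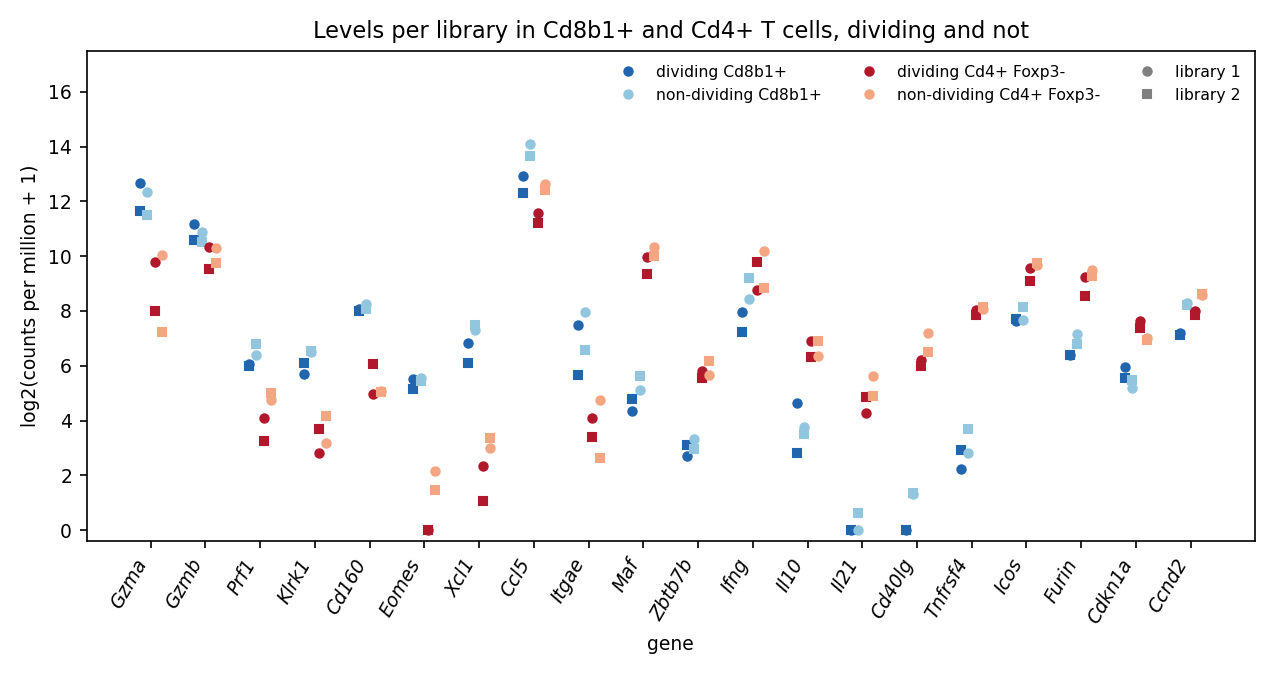
Level of 20 genes (horizontal) as log2(CPM + 1) (vertical) in dividing (dark) and non-dividing (light) Cd8b1+ (blue) and Cd4+ Foxp3- (red) T cells; circles are library 1 and squares library 2. Prf1, Klrk1, Cd160 and Xcl1 are higher in both Cd8b1+ libraries and Maf, Tnfrsf4 and Furin in both Cd4+ libraries, in dividing and non-dividing cells.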

How the data were processed

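Droplet single-cell RNA sequencing of the colon gave 2 libraries, deposited by the authors as UMI counts per gene and barcode (55357 genes). Per the file headers the matrices were written by Cell Ranger 7.0.0, whereas the submitters' processing notes name Cell Ranger 8.0.0, with mm10 as the genome. The gene annotation was not stated. The labels' protocols name both version 3 capture and version 2 library reagents. The libraries held 76622643 and 94204110 UMIs, and the members 2392978 and 3881828.

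Raw counts were gated as the report describes (Python 3.11.15, scanpy 1.11.5), with no clustering. Barcodes were scored with Scrublet, and the highest scorers, as many as 0.8% per 1000 barcodes gives, were taken as likely doublets. They were kept, and removed in an alternative. Counts were summed per library, class and lineage where each library had at least 20 cells, and tested with edgeR 4.0.16 (R 4.3.3; TMM, filterByExpr, quasi-likelihood, library as block) with Benjamini-Hochberg adjustment over all genes tested. The library pairs the sums because both classes come from the same sample. The 8 genes of the rule were not tested. Printed CPM are scaled to the UMIs of each sum. DESeq2 1.42.0 and other settings were alternatives. Shares have exact 95% intervals, which cover counting error only. Named genes were up to 4 per list and direction (at least 20 CPM, same direction in both libraries) and 8 outside the lists (at least 100 CPM). Others named besides these belong to the lists or were chosen after their values were seen. The members and lists were chosen with earlier results of these data known.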

Additional observations from a re-analysis of the deposited data

Results flagged for a closer look

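The change with division differed between Cd8b1+ and Cd4+ cells for 8 genes by the interaction test in edgeR, given as log2 difference of the changes ± SE. They were Stmn2 (11.36 ± 1.37, edgeR adjusted p = 0.0067), Mt2 (2.25 ± 0.32, edgeR adjusted p = 0.0113), Col1a2 (8.43 ± 1.23, edgeR adjusted p = 0.0113), Col1a1 (8.48 ± 1.24, edgeR adjusted p = 0.0113), Serpina3n (7.30 ± 1.11, edgeR adjusted p = 0.0137), Fbln2 (7.24 ± 1.15, edgeR adjusted p = 0.0196), Itm2a (4.07 ± 0.67, edgeR adjusted p = 0.0253) and Timp1 (6.04 ± 1.05, edgeR adjusted p = 0.0411). Col1a1 and Col1a2 encode collagen, which fibroblasts make. Among dividing Cd8b1+ cells of library 2, 1 barcode with a high doublet score held the most UMIs of each gene: 275 of 292 of Col1a2, 159 of 177 of Col1a1, 63 of 67 of Timp1, 54 of 65 of Itm2a, 49 of 63 of Serpina3n, 32 of 36 of Fbln2, 31 of 33 of Stmn2 and 54 of 128 of Mt2. Among non-dividing Cd4+ cells, single barcodes held 162 of 164 UMIs of Col1a1 in library 1 and 258 of 271 in library 2. Without the barcodes of highest doublet score, 0 genes were called. Fitted values of genes with sums at 0 are no bounds.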

How the results depend on the processing

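With dividing against non-dividing cells, the 2076 higher and 1375 lower genes were 863 and 184 with DESeq2, 1128 and 552 within Cd8b1+ cells and 972 and 499 within Cd4+ cells. The 2 settings within lineages were chosen after seeing the data. Between dividing Cd8b1+ and Cd4+ cells, the 89 higher and 169 lower genes were 46 and 83 with DESeq2, and 170 were higher with no filter on low counts. The interaction gave 2 higher genes with DESeq2, 74 higher and 11 lower with no filter, 0 higher without likely doublets, 1 with at least 3 CD3 UMIs and 4 with 2 UMIs of the defining gene. Without the replicate block, which is the pairing by library, 1575 genes were higher and 636 lower with division, 45 higher and 89 lower in Cd8b1+ cells, and 0 passed the interaction. The cause of these changes was not tested.

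Of 80 named genes of the division comparison, 56 kept their calls with DESeq2, 55 without the block and 57 of 78 with equal weight to each lineage. Of 53 named genes of the lineage comparison, 37 did with DESeq2 and 30 without the block. Direction reversed within Cd8b1+ cells for Trbc1 (-0.12) and Il17a (2.06), within Cd4+ cells for Gzmb (-0.022), Serpinb9 (-0.23) and Itgae (0.016), and with equal lineage weight for Serpinb9 (-0.00847).

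As means of the libraries at 3000 UMIs, Cd8b1+ cells were 44.4% of dividing and 27.7% of non-dividing cells. With 2 UMIs of the defining gene these were 31.0% and 20.2%, and the non-dividing share was 33.8% at 5000 UMIs. The Cd4+ share of dividing cells was 17.2%, and 19.5% at 5000 UMIs, 23.9% unthinned, 8.23% with 2 UMIs of Cd4, 17.9% without likely doublets, 19.0% and 15.9% with division thresholds of 2 and 5 UMIs and 17.4% with Epcam at 0. Of non-dividing cells it was 21.2%, and 10.6% with 2 UMIs of Cd4. The share with a UMI of Mki67 or Top2a was 38.4% of Cd8b1+ and 30.9% of Cd4+ cells. It was 54.5% and 50.4% at 5000 UMIs, and 28.0% of Cd4+ cells with Epcam at 0. By the 3-UMI rule without thinning it was 24.9% and 16.1%. Leaving out a library gave folds without a test. The planned contrasts of dividing Foxp3+ and Trdc+ with Cd4+ cells were not run, since a library held fewer than 20 cells.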
